A study of Mus musculus with 8 samples.

Results

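The Grainyhead family was examined in BMEL cells, a line of bipotential mouse embryonic liver cells, after ectopic expression of GRHL2. Its members were taken by symbol from the deposited expression table, and all 6 of them (Grhl1, Grhl2, Grhl3, Tfcp2, Tfcp2l1 and Ubp1) were found among its 18671 genes. There were 4 samples transfected with a plasmid for GRHL2 (pGRHL2, called GRHL2 samples here) and 4 with the pcDNA3 vector (control samples). Total RNA was collected 48 h after transfection in both groups, and the samples of each group are numbered 1 to 4 and described by the study as independent biological replicates. The GRHL2 plasmid carries the human cDNA with a Flag tag under the EEF1A1 promoter, together with EGFP, a green fluorescent protein that pcDNA3 does not encode. Transfection was transient and the whole culture was sequenced, so a change in the share of cells that express a gene and a change of RNA per cell cannot be told apart.

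Grainyhead factors bind DNA as dimers, and the family has a Grainyhead branch (Grhl1, Grhl2, Grhl3) and a CP2 branch (Tfcp2, Tfcp2l1, Ubp1). Grhl1 is best known from desmosomes and hair anchorage in the epidermis, Grhl2 from the junctions of simple epithelia, and Grhl3 from the skin barrier and neural tube closure. Tfcp2 and Ubp1 are broadly expressed, whereas Tfcp2l1 is known from the naive pluripotent state and from kidney collecting ducts and other ductal epithelia.

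Values were read as a log2 scale per kb of transcript (rlog less the log2 of transcript length), so that levels of different genes can be set side by side as far as the averaged transcript lengths allow. The rlog shrinks differences of genes with few reads, and such differences are therefore understated. The read depth of each sample is unknown. Markers of liver epithelium were high in control samples, with means of 15.31 for Krt8, 15.05 for Krt19 and 11.16 for Hnf4a (hepatocyte nuclear factor), and Alb, a hepatocyte product, was at 5.25. Markers of other cell types ran from 0.90 (Ptprc) to 3.22 (Hba-a1) for blood, from 1.23 (Cdh5) to 3.33 (Pecam1) for endothelium, and from -0.23 (Pdgfrb) to 5.22 (Col1a1, close to Alb) for stellate cells and fibroblasts. In control samples the summed marker level was 16.59 to 16.77 for liver epithelium, 3.75 to 3.81 for blood, 4.10 to 4.13 for endothelium and 5.44 to 5.72 for stellate cells and fibroblasts, and in GRHL2 samples it was 16.75 to 16.90, 3.82 to 3.84, 4.05 to 4.19 and 5.57 to 5.86. Of these markers limma called Afp lower (1 of 9 liver markers) and Pdgfrb higher (1 of 3 fibroblast markers), and none of the 3 blood and 3 endothelial markers was called, with 1 higher at an unadjusted p under 0.05 among the blood markers and 1 in each direction among the endothelial ones. The summed blood markers, led by Hba-a1, did not overlap between the groups. The part of these shifts in the results below was not tested.

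In control BMEL cells, the CP2 branch lay above the Grainyhead branch. Ubp1 had the highest level of the family, at 9.21 ± 0.13 (SD, n = 4), followed by Tfcp2 at 7.20 ± 0.041 (SD, n = 4) and Tfcp2l1 at 6.03 ± 0.077 (SD, n = 4). Grhl2 was at 4.53 ± 0.12 (SD, n = 4) and Grhl1 at 4.26 ± 0.14 (SD, n = 4). Grhl3 stood far below, at 0.26 ± 0.010 (SD, n = 4), a level above that of only 6.40% of all genes, whereas that of Ubp1 was above 79.0% and that of Grhl2 above 38.7%. The neighbours in this order were separated in each control sample, by 2.01 ± 0.10 (SD, n = 4) between Ubp1 and Tfcp2 and by 1.16 ± 0.097 (SD, n = 4) between Tfcp2 and Tfcp2l1. The next steps measured 1.51 ± 0.15 (SD, n = 4) from Tfcp2l1 to Grhl2 and 4.01 ± 0.14 (SD, n = 4) from Grhl1 to Grhl3. The one narrow step was that from Grhl2 to Grhl1, which measured 0.27 ± 0.22 (SD, n = 4) and ran from 0.034 to 0.55, so their order is close to the spread between samples. When the length was added back, Grhl3 had an rlog level of 1.74, higher than that of 14.3% of genes with a known length. On that scale Tfcp2l1 (8.32) lay above Tfcp2 (7.96) and Grhl1 (5.95) above Grhl2 (5.87). The order within these pairs therefore depends on the averaged transcript lengths, which the SD between samples does not cover.

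**Figure D1:**
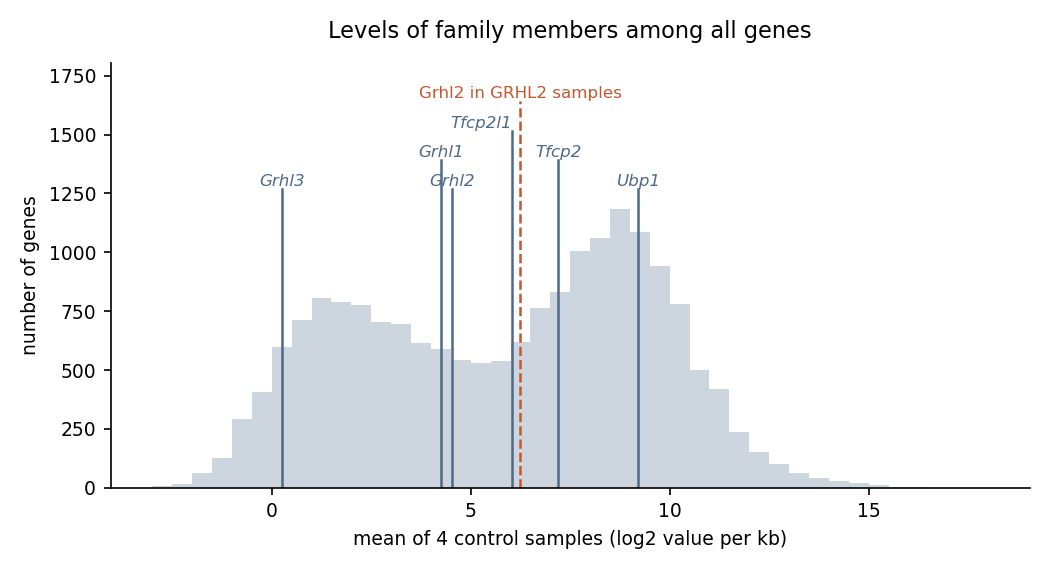
Histogram of the mean log2 value per kb of all genes over the 4 control samples, with the family members as blue lines and Grhl2 in GRHL2 samples as a dashed line. Grhl3 lies at the low end, Ubp1 in the upper part, and Grhl2 moves from 4.53 to 6.24, next to Tfcp2l1.

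Grhl2 and Tfcp2l1 were the members that rose in GRHL2 samples, and no member was called lower. The other paralogs of GRHL2 did not pass the test without the replicate block: Grhl1 had a small positive difference, Grhl3 stayed near the low end of the table, Tfcp2 had nearly equal means and Ubp1 a small negative difference. The 2 members called higher of 6 stand against 10.5% of all genes called higher by limma (adjusted p under 0.05), and the count of 0 called lower against 5.91% (16.4% in either direction). This count includes Grhl2, whose plasmid was transfected, so that its call is a description only. Tfcp2l1 was the only other member called. At an unadjusted p under 0.05, 3 members were higher, with Grhl1 as the third, and 0 lower, beside 18.4% and 12.7% of all genes. Among all genes 1957 were called higher and 1104 lower, or 3064 and 972 when the upper quartile of the samples was made equal and 2912 and 869 when their sums were. With the replicate number as a block, 3 members were called higher and 1 lower (Ubp1), against 18.2% and 13.9% of all genes (32.1% in either direction). Taken one at a time, Grhl2 and Tfcp2l1 had the smallest p that 4 samples against 4 allow (exact permutation test, two-sided, p = 0.0286), whereas Grhl1 and Grhl3 had 0.114, Ubp1 0.143 and Tfcp2 1 by the same exact test. A p this small only means that the groups did not overlap. Of all genes, 14.3% had all GRHL2 samples above the control samples and 9.47% all below.

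Grhl2 (ENSMUSG00000022286; GRCm38 chromosome 15, 37233036 to 37363569, plus strand; positions here are from GENCODE M21) measured 6.30, 6.96, 5.65 and 6.05 in replicates 1 to 4 with GRHL2 and 4.68, 4.57, 4.42 and 4.44 in the control replicates. The GRHL2 samples all lay above the control samples, which held for 14.3% of all genes, but their SD of 0.55 was the widest of the members: replicate 2 was the highest and replicate 3 the lowest. The same-numbered differences were 1.61, 2.38, 1.23 and 1.61. Its mean difference of 1.71 on the log2 scale (standard error 0.22; limma, adjusted p = 0.00100) stood above that of 99.98% of the genes. It was 1.48 without the samples numbered 2 and 1.42 in replicates 3 and 4 alone, with adjusted p-values of 0.000897 and 0.000968 (limma). Reads of the plasmid's human cDNA that aligned to the mouse gene are counted under the same symbol, and the share of plasmid and endogenous transcripts in this rise was not tested.

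Grhl1 (ENSMUSG00000020656; chromosome 12, 24572283 to 24617391, plus strand) had values of 4.59, 4.70, 4.41 and 4.32 in GRHL2 samples and of 4.14, 4.39, 4.38 and 4.15 in control samples. The groups overlapped, since GRHL2 replicate 4 lay below control replicates 2 and 3. Each GRHL2 sample was nevertheless above the control sample of its number, by 0.45, 0.32, 0.027 and 0.18, as in 27.3% of all genes. The log2 fold change of 0.24 (standard error 0.091) had an adjusted p of 0.0969 without the replicate block and of 0.0168 with it (limma). Replicates 1 and 2 alone gave 0.38, whereas replicates 3 and 4 alone gave 0.10.

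Grhl3 (ENSMUSG00000037188; chromosome 4, 135541888 to 135573630, minus strand) ranged from 0.26 to 0.29 in GRHL2 samples and from 0.25 to 0.27 in control samples. The groups overlapped, and the log2 fold change was 0.014 (95% interval from -0.010 to 0.039, adjusted p = 0.421, limma). The interval holds for the rlog scale, on which differences at such low levels are shrunk.

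**Figure D2:**
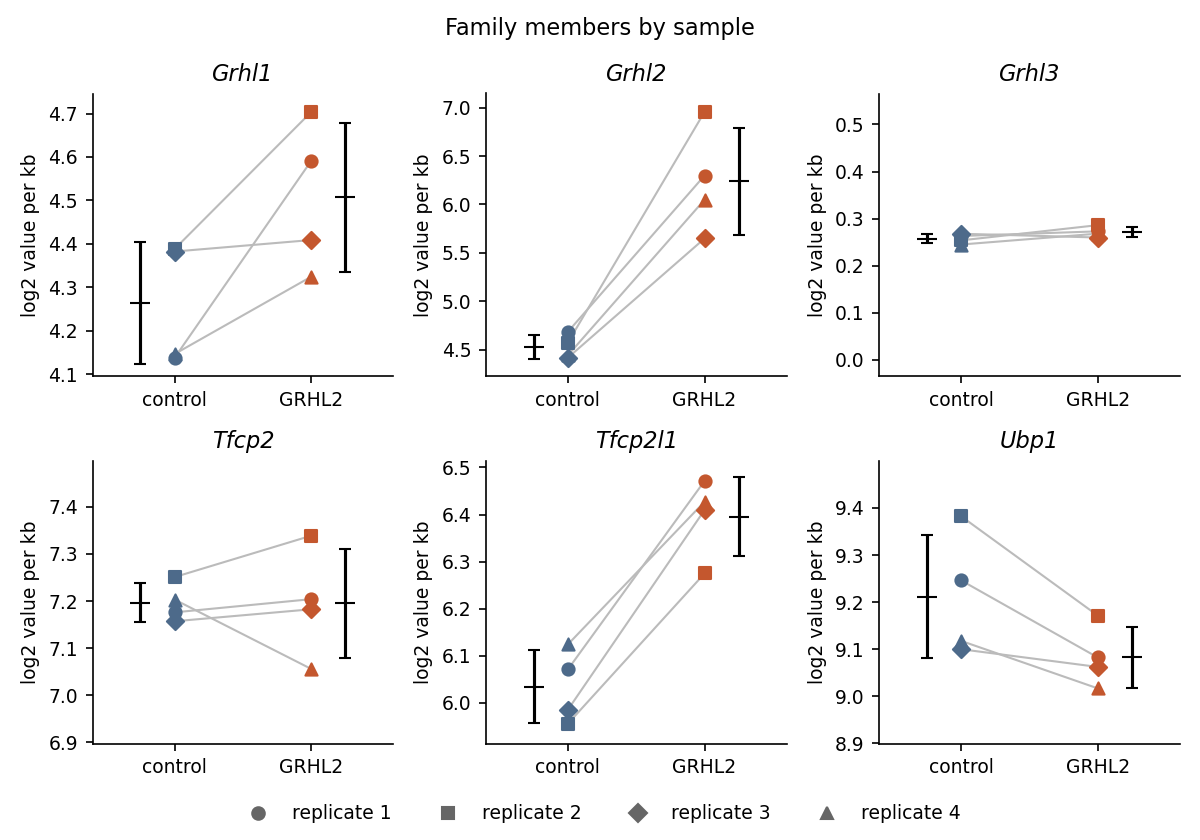
Log2 value per kb of each family member in the 4 control (blue) and 4 GRHL2 (orange) samples, with grey lines between samples of the same replicate number and black bars for the mean and SD; each panel has its own axis, which does not start at 0. Grhl2 and Tfcp2l1 have groups that do not overlap, and the other members overlap.

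Tfcp2l1 (ENSMUSG00000026380; chromosome 1, 118627945 to 118685168, plus strand), a paralog of GRHL2 in the CP2 branch, had values of 6.47, 6.27, 6.41 and 6.43 in GRHL2 samples and of 6.07, 5.96, 5.99 and 6.12 in control samples. The GRHL2 samples all lay above the control samples, as in 14.3% of all genes. The rise was even: the same-numbered differences were 0.40, 0.32, 0.42 and 0.30. On average it came to 0.36 (standard error 0.056; limma, adjusted p = 0.00243), above that of 97.6% of all genes. It was 0.36 in replicates 1 and 2 as in replicates 3 and 4, with adjusted p-values of 0.0675 and 0.00853 (limma). Replicate 2, the highest of the GRHL2 samples for Grhl2, was the lowest of them for Tfcp2l1. Control replicate 2 was likewise the lowest control sample for Tfcp2l1, so that the low value was shared by the samples of this number in both groups.

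The promoter of Tfcp2l1 is shown because this gene, alone of the members other than Grhl2, was called higher; the capitals mark the letters TATAAA, and the stretch covers the 250 bases before the RefSeq start (GRCm38.p6, chr1:118627695-118627944, plus strand).
Tfcp2l1: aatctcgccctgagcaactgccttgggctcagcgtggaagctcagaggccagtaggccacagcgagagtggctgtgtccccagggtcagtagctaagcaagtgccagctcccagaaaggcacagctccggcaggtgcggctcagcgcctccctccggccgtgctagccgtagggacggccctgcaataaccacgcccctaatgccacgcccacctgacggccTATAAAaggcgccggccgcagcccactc
The TATAAA letters begin at position -28 from the start, and they were singled out after the sequence was seen. They occur on either strand in 12.4% of all 32851 upstream stretches of this length in the table. The letters AACNGGTT, a form of the Grainyhead binding sequence searched on both strands (so that AACCNGTT counts too, with the palindrome AACCGGTT included in both), were not found in the windows of the 5 members with an entry, from 250 bases before to 50 after the start. These members were Grhl1, Grhl3, Tfcp2, Tfcp2l1 and Ubp1, with 7 windows in all, and of all windows 2.09% hold the letters. Grhl2 has no entry.

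Tfcp2 (ENSMUSG00000009733; chromosome 15, 100498012 to 100552008, minus strand) was measured at 7.20, 7.34, 7.18 and 7.06 in GRHL2 samples and at 7.18, 7.25, 7.16 and 7.20 in control samples. The group means differed by -0.0016 (95% interval from -0.14 to 0.13, adjusted p = 0.990, limma), and the sign of so small a value turned with the scaling. Replicate 2 was the highest in each group.

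Ubp1 (ENSMUSG00000009741; chromosome 9, 113930934 to 113977202, plus strand) had values of 9.08, 9.17, 9.06 and 9.02 in GRHL2 samples and of 9.25, 9.38, 9.10 and 9.12 in control samples. The groups overlapped, and replicate 2 was again the highest in each. Within each number the GRHL2 sample was the lower one, with differences of -0.16, -0.21, -0.038 and -0.10, as in 21.3% of all genes. The log2 fold change was -0.13 (standard error 0.068), with an adjusted p of 0.237 without the replicate block and of 0.0387 with it (limma). It was -0.071 without control replicate 2, -0.19 in replicates 1 and 2 and -0.069 in replicates 3 and 4. An exon of Fbxl2 on the other strand overlaps Ubp1 over 496 bases, and counting took no account of strand, so reads of that stretch cannot be assigned.

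**Figure D3:**
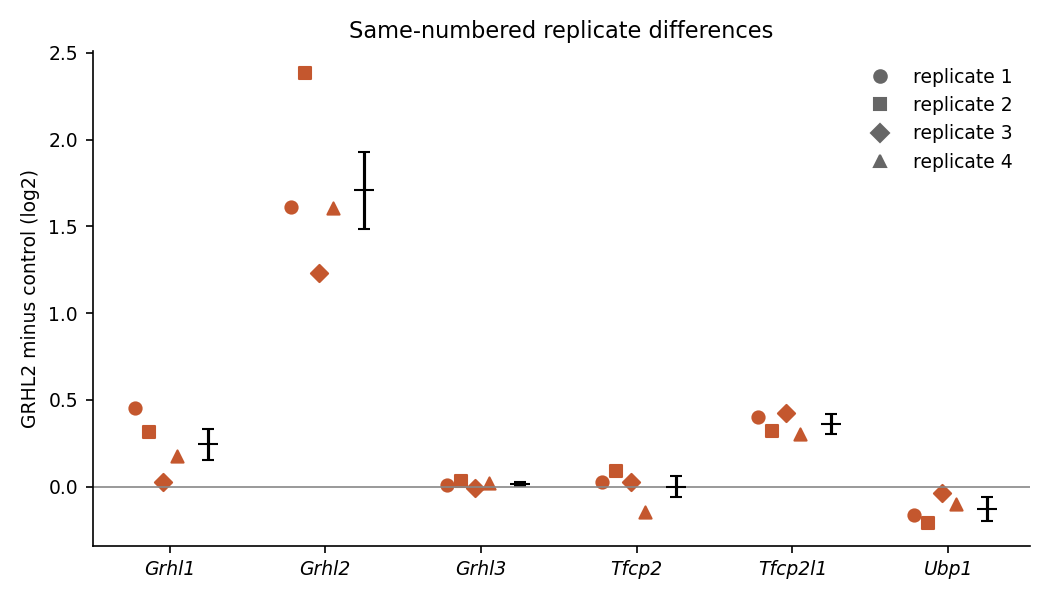
Difference of the GRHL2 and the control sample of the same number on the log2 scale for each member (orange symbols), beside the mean difference and its standard error from limma (black). The differences of Grhl2 run from 1.23 to 2.38, those of Tfcp2l1 from 0.30 to 0.42, and those of Ubp1 are all below 0.

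How far the paralogs differed in their response was read from the gap between 2 members within each sample, for each of the 15 pairs. The 5 pairs with Grhl2 are a description only, since its plasmid was transfected: its rise exceeded that of Tfcp2l1 by 1.35 (standard error 0.31) and that of Grhl1 by 1.47 (standard error 0.23). The rise of Tfcp2l1 exceeded the change of its close relative Tfcp2 by 0.36 (standard error 0.11; exact permutation test over samples, two-sided, p = 0.0286, n = 4 against 4) and that of Ubp1 by 0.49 (standard error 0.12; exact permutation test, p = 0.0286). The changes of Grhl1 and Tfcp2l1 differed by -0.12 (standard error 0.16), which was within the spread (exact permutation test, p = 0.486). Of the 10 pairs without Grhl2, 5 had the smallest p that 4 samples against 4 allow, and these p-values are not adjusted. Each of the 5 holds Grhl1 or Tfcp2l1, so they are not separate results. The share of such pairs among all genes was not computed. Single genes were separated in this way in 14.3% (higher) and 9.47% (lower) of cases.

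The composition of the family is given as a description only. Each share below has Grhl2, the transfected gene, in its part or its sum, so that plasmid reads enter it. When the values were taken back to a linear scale per kb, Grhl2 made up 57.8%, 51.8%, 49.2% and 53.5% of the summed Grainyhead branch in control replicates 1 to 4, and 75.7%, 82.0%, 69.1% and 75.7% in GRHL2 replicates. The groups did not overlap. The Grainyhead branch held between 4.95% and 5.44% of the summed family in control samples and between 8.67% and 15.7% in GRHL2 samples. Ubp1 held between 68.3% and 71.9% of it in control samples and between 59.6% and 63.8% in GRHL2 samples, and so stayed the most abundant member in every sample. In GRHL2 samples the level of Grhl2 came next to that of Tfcp2l1, with a gap of -0.16 ± 0.61 (SD, n = 4) that had either sign. These shares come from rlog values, which understate the changes of low genes.

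Genes known to depend on Grainyhead factors were taken as a list of 22, of which 20 were in the table. Of these, 18 were called higher by limma, 0 lower and 2 not called, and all 18 had GRHL2 samples above all control samples, against 10.5% of all genes called higher, 5.91% called lower and 14.3% so separated. At an unadjusted p under 0.05, 19 were higher and 0 lower, beside 18.4% and 12.7% of all genes. In the list the median difference was 0.50 on the log2 scale, against 0.0066 for all genes. Several of these genes were known to rise in these samples when the list was drawn up, so that the count is a description and not independent evidence.

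Among regulators of surface proteolysis, Spint1, an inhibitor of matriptase, was at 5.98 ± 0.17 (SD, n = 4) in GRHL2 samples and at 4.80 ± 0.017 (SD, n = 4) in control samples, which is a difference of 1.18 on the log2 scale (limma, adjusted p = 2.90e-05). Its relative Spint2 rose by 0.44 (adjusted p = 0.0287). Of the proteases, St14, which encodes matriptase, rose by 0.16 (adjusted p = 0.00652) and Prss8, which encodes prostasin, by 0.62 (adjusted p = 9.79e-05). Prss8 overlaps an exon of Kat8 on the other strand. Erbb3, a receptor of neuregulins, was at 4.55 ± 0.11 (SD, n = 4) in control samples and rose to 5.95 ± 0.15 in GRHL2 samples (limma, adjusted p = 2.14e-05). The differences of Erbb3 in replicates 1 to 4 were 1.49, 1.62, 1.18 and 1.30. As for Grhl2, replicate 2 had the largest and replicate 3 the smallest, which does not hold for all called targets.

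Among cell adhesion and transcription genes of the list, Cdh1, which encodes E-cadherin, was already at 12.21 in control samples and rose by 0.29 (adjusted p = 0.0199). The ETS factor Elf3, which has Gm26642 on the other strand, rose by 0.60 (adjusted p = 0.0362) and the splicing regulator Esrp2 by 0.27 (adjusted p = 0.0138), with part of the latter overlapping Nfatc3 on the other strand. Genes best known as targets of Grhl1 and Grhl3 in the epidermis rose as well: the transglutaminases Tgm1 and Tgm5 by 0.27 (adjusted p = 0.0191) and 0.36 (adjusted p = 0.00646), and the guanine nucleotide exchange factor gene Arhgef19 by 0.30 (adjusted p = 0.00577), all by limma. Tert, which encodes the catalytic subunit of telomerase, did not pass (log2 fold change 0.040, standard error 0.074, adjusted p = 0.764, limma).

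**Figure D4:**
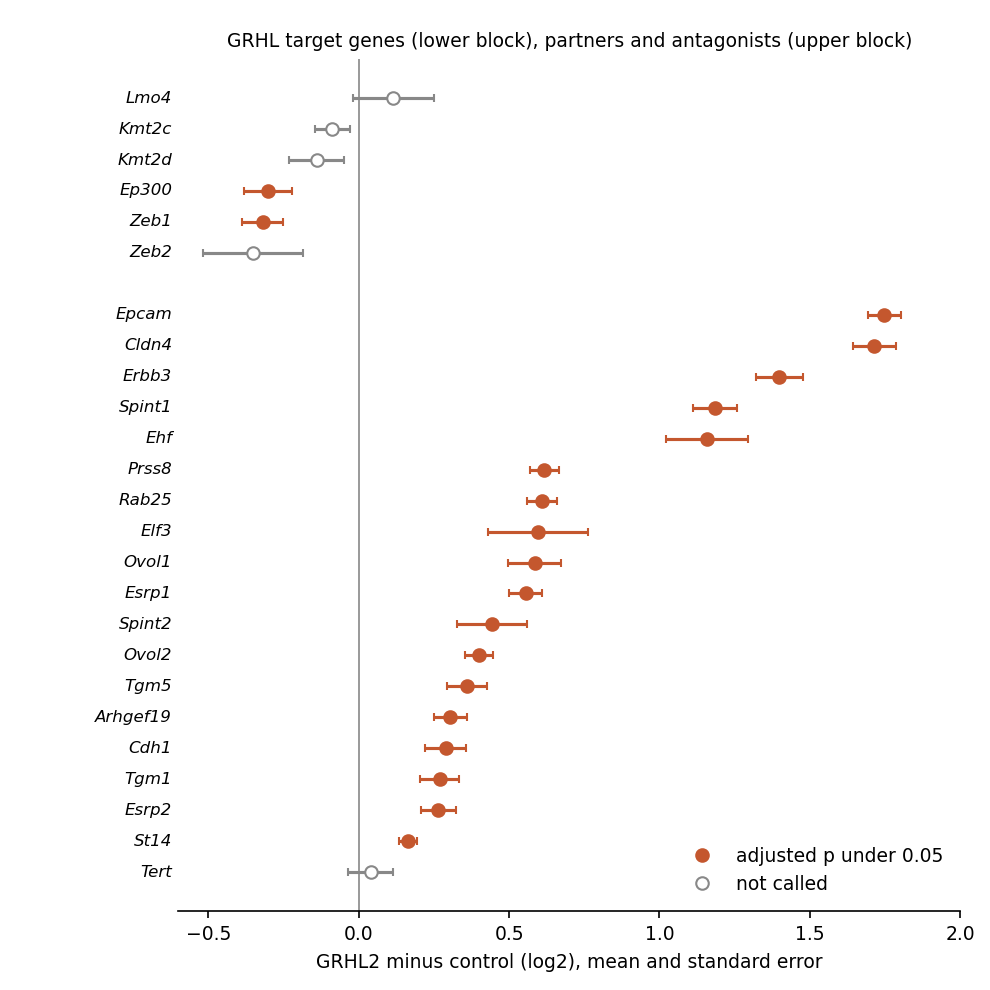
Log2 difference of GRHL2 and control samples with its standard error (limma) for 19 of the 20 target genes in the table (lower block) and the 6 partners and antagonists (upper block); filled orange points have an adjusted p under 0.05. The targets shown run from 0.040 for Tert to 1.75 for Epcam, and Zeb1 and Ep300 are called lower.

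The rise of these genes was uneven over the replicate numbers. The largest same-numbered difference of Grhl2 was that of replicate 2, and 15 of the 18 called targets (83.3%) had theirs in replicate 2 as well, beside 59.7% of the genes called higher among all genes. In replicate 3, where Grhl2 rose least, 0 of the 18 had their largest difference, beside 235 of the 1957 genes called higher. By the highest GRHL2 sample, without regard to the controls, 12 of the 18 (66.7%) peaked in replicate 2, beside 56.2% of the genes called higher, and 3 peaked in replicate 3. Over all genes, the samples numbered 1 and 2 deviated from their group means in the opposite way to those numbered 3 and 4 of the other group (r across genes from -0.40 to -0.61), and the part of this in the order of the replicates was not tested. Without the samples numbered 2, 17 of the 20 targets were called higher, and the count lay between 15 and 18 when each sample was left out in turn.

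Of the 6 factors listed as acting with or against GRHL2, limma called 0 higher and 2 lower, beside 10.5% and 5.91% of all genes. The counts were the same at an unadjusted p under 0.05, beside 18.4% and 12.7%, and came to 0 higher and 3 lower with the replicate block, beside 18.2% and 13.9%. Zeb1, the repressor of epithelial genes that GRHL2 is known to oppose, fell by 0.32 on the log2 scale (adjusted p = 0.0125, limma), from 8.34, 8.46, 8.24 and 8.20 to 7.97, 8.09, 8.04 and 7.87. The GRHL2 samples all lay below the control samples, which held for 9.47% of all genes. An exon of Gm10125 lies opposite Zeb1. Zeb2, its relative, had values of 7.23, 7.57, 6.94 and 6.92 in GRHL2 samples and of 7.48, 7.93, 7.35 and 7.31 in control samples. The groups overlapped, and its log2 fold change of -0.35 had an adjusted p of 0.184 without the replicate block and of 0.000428 with it (limma). Ep300, the histone acetyltransferase p300, whose activity GRHL2 is known to restrain, fell by 0.30 (adjusted p = 0.0285, limma). The methyltransferase genes Kmt2c (-0.088, adjusted p = 0.338) and Kmt2d (-0.14, adjusted p = 0.332) and the LIM protein gene Lmo4 (0.11, adjusted p = 0.611) did not pass.

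Of the 6 known targets and partners of Tfcp2 and Ubp1, limma called 0 in either direction, beside 10.5% of all genes called higher and 5.91% lower. At an unadjusted p under 0.05, 0 were higher and 1 lower, beside 18.4% and 12.7% of all genes. With the replicate block 1 was called in each direction, beside 18.2% and 13.9%. Their log2 fold changes ran from -0.22 to 0.57. Spp1, which encodes osteopontin, had a log2 fold change of 0.57 with a standard error of 0.31 and an adjusted p of 0.250, or of 6.96e-05 with the block (limma). Tyms, the thymidylate synthase gene and a known target of Tfcp2, had one of 0.10 (adjusted p = 0.314). Yy1, a zinc finger factor that acts with Tfcp2, had one of -0.22 (adjusted p = 0.0945, or 0.00453 with the block).

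Of the 8 genes of the pluripotency network around Tfcp2l1, 6 were in the table, Nanog and Sall4 not being among them. None of the 6 was called by limma. At an unadjusted p under 0.05, 3 were higher and 1 lower, beside 18.4% and 12.7% of all genes, and 3 were called higher and 1 lower with the replicate block, beside 18.2% and 13.9%. Klf4 had values of 10.43, 10.36, 10.80 and 10.73 in GRHL2 samples and of 10.89, 10.83, 10.87 and 10.91 in control samples, so that all GRHL2 samples lay below, as in 9.47% of all genes. Its log2 fold change was -0.29 (adjusted p = 0.0571, or 0.00969 with the block). Klf2 had one of 0.17 (adjusted p = 0.0550, or 0.00604 with the block), Nr5a2 one of 0.097 (adjusted p = 0.0954, or 0.0107 with the block) and Tbx3, which has Tbx3os1 on the other strand, one of 0.25 (adjusted p = 0.136, or 0.00603 with the block), all by limma. The groups of Klf2 did not overlap either, with all GRHL2 samples above the control samples, as in 14.3% of all genes. Esrrb was at -0.21 and Prdm14 at 1.74 in GRHL2 samples, and neither passed at an unadjusted p under 0.05.

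In the promoter table, 12 of the 22 target genes had an entry, with 13 windows, and 2 of the 12 genes held the AACNGGTT letters, beside 2.35% of all genes. These were Tgm5, where the match reaches into the transcribed part, and Rab25, a GTPase of apical recycling. That of Rab25 is shown as the upstream example, with the match in capitals, over the 250 bases before the RefSeq start (GRCm38.p6, chr3:88548280-88548529, minus strand).
Rab25: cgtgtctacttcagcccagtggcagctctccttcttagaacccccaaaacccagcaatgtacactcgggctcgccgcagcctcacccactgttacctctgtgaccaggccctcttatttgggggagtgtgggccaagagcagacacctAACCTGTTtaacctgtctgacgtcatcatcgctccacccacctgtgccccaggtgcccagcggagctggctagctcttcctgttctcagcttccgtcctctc
The match begins at position -102 from the start. Rab25 rose by 0.61 (adjusted p = 0.000120, limma). The windows of Cldn4, Epcam, Spint1 and Ovol2, whose genes were called higher too, hold no such letters, which says nothing on sites elsewhere.

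Finally, the genes whose profile was closest to that of each called member were listed, by the root mean square difference over the 8 samples of values less the control mean. For Grhl2 these were Tchh (0.22), which encodes trichohyalin, Lama3 (0.23), a laminin chain of epithelial basement membranes, the carboxypeptidase gene Cpa4 (0.23), the serine protease gene Prss22 (0.25) and the claudin gene Cldn4 (0.30). Cpa4 had values of 5.66, 6.25, 4.64 and 4.85 in GRHL2 samples and from 3.82 to 3.93 in control samples. Like Grhl2, each of these 5 genes was highest in GRHL2 replicate 2. For Tfcp2l1 the genes reported among the 5 closest were Ankrd13d (0.049), Cdh24 (0.051), which encodes a cadherin, Epb41l5 (0.061), known from epithelial polarity and morphogenesis, and the phospholipase gene Plcd1 (0.062). These genes were picked for their likeness, so that no test is given for them.

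**Figure D5:**
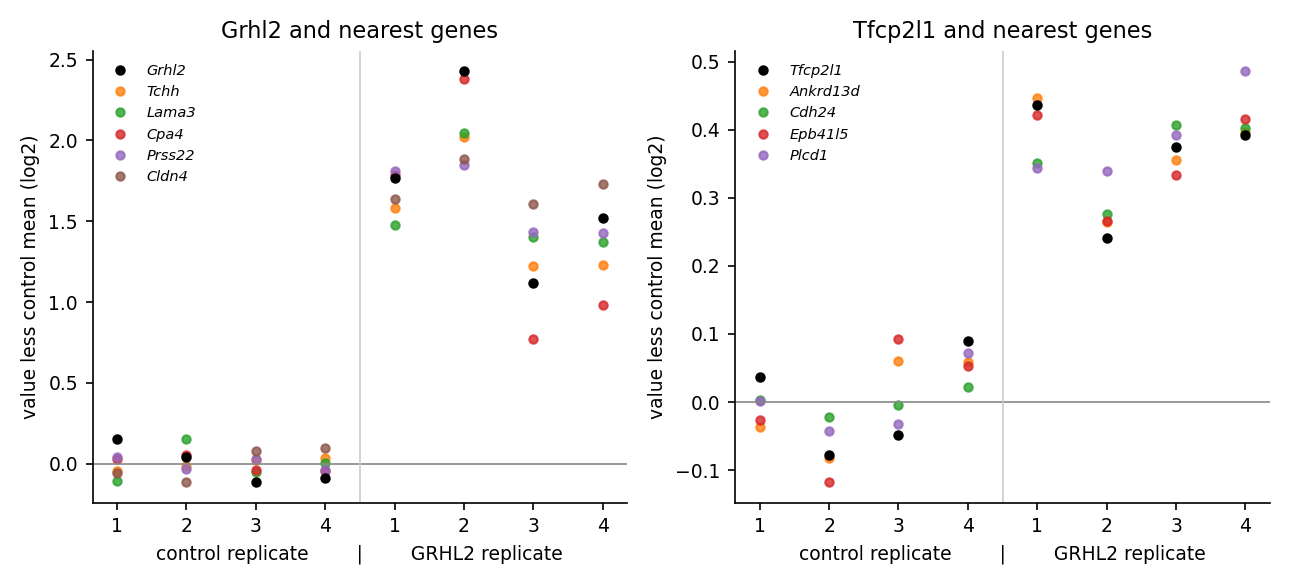
Values less the control mean (log2) in the 4 control and 4 GRHL2 samples for Grhl2 (left, black) and Tfcp2l1 (right, black) and genes among the 5 nearest to each (colours). Of the GRHL2 samples, replicate 2 is the highest for every gene in the left panel and the lowest for every gene in the right panel. Control replicate 2 is also the lowest control sample for every gene in the right panel.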

How the data were processed

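RNA-seq libraries from total RNA of 8 BMEL samples were compared in 1 table. The authors aligned reads to the mouse genome (mm10), counted them per gene without regard to strand and divided rlog values by transcript length, if their methods, which open with public data, cover these samples. The submitters' processing notes list HISAT2 2.2.1, HTSeq 0.9.1 and DESeq2 1.40.2, and the methods name other versions of HISAT2 and DESeq2. The deposited table is labelled as FPKM, but 4.81% of its values are below 0, and it was read, by inference, as a log2 scale of rlog less log2 transcript length. This reading was checked with GENCODE M21 lengths, which matched 18428 of 18671 genes: over 5 length groups the lowest percentile ran from 0.63 to -1.84, and from 0.30 to 0.39 with log2 length added back. Groups were compared with limma 3.58.1 (R 4.3.3) over all genes, with a mean-variance trend and Benjamini-Hochberg adjustment (adjusted p under 0.05), without a block; the procedure was tested on simulated data. The deviations of same-numbered samples from their group means correlated in all 4 replicates (r across genes 0.47, 0.56, 0.55 and 0.65). The numbers were therefore read as pairs in the replicate block and the same-numbered differences, but not in the main fit or the exact tests. Samples 1 and 2, and 3 and 4, also deviated together (0.34 to 0.60). GRHL2 replicate 3 correlated more with control replicate 4 (0.60) than with its own number (0.55), so the pairing is not certain. Alternatives were the replicate block, scaling to an equal upper quartile or sum, no trend, a filter on low values and leaving out samples; the splits by replicate number were added after seeing the data. Genes were named by fixed lists, group separation and, for called members, the 5 nearest profiles; 1 target and 1 nearest gene are not reported here. The members and lists were chosen with earlier results of these data known. Promoter sequences are from RefSeq; proteins were not used here.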

Additional observations from a re-analysis of the deposited data

How the results depend on the processing

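Grhl2 kept its direction and its call under all 16 alternatives, with 1.47 to 1.91 when each sample was left out in turn. Tfcp2l1 ranged from 0.34 to 0.40 in the same way, and its call was lost only in replicates 1 and 2 alone (0.36, adjusted p = 0.0675, limma), where fewer samples were tested and 1 member was called higher. The adjusted p of Tfcp2l1 was between 0.000316 and 0.0675 over the alternatives. With the replicate block, Grhl1 (0.24, adjusted p = 0.0168; range over alternatives 0.0168 to 0.410) and Ubp1 (-0.13, adjusted p = 0.0387; 0.0387 to 0.459) passed the threshold, so that 3 members were called higher and 1 lower. The block changed no other call of a member. The sign of Tfcp2 turned with an equal upper quartile (0.021), an equal sum (0.023) and in replicates 1 and 2 alone (0.058), and ran from -0.049 to 0.045 when each sample was left out; the cause was not tested. In the same way Grhl1 ran from 0.18 to 0.30, Grhl3 from 0.0095 to 0.018 and Ubp1 from -0.17 to -0.071, and the members called stayed at 2 higher and 0 lower. Scaling moved Grhl3 further, to 0.037 with an equal upper quartile and 0.038 with an equal sum. It was not called in either (adjusted p = 0.073 and 0.075, limma). The Grainyhead targets called higher ran from 14 (replicates 1 and 2 alone) to 19, with 0 called lower under each alternative. Over all genes the block called 3396 higher and 2589 lower, replicates 1 and 2 alone 1021 and 339, and leaving out control replicate 1 gave 1326 and 691, against 1957 and 1104; higher calls made up 63.9% of these, 75.9% with an equal upper quartile and 77.0% with an equal sum. Read depth is unknown, and the rlog shrinks differences of low genes such as Grhl3.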
